A study of Mus musculus with 8 samples.

Results

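The genes described here encode epithelial proteases and protease inhibitors studied in eosinophilic esophagitis (EoE), a chronic inflammatory disease of the esophagus. They were chosen by symbol as 10 genes: the calpain Capn14, the kallikreins Klk5, Klk7, Klk8, Klk10 and Klk13, the Kazal-type inhibitor Spink5, the cystatin Cst6 and the clade B serpins Serpinb5 and Serpinb13. Of these, 9 had a row among the 32849 gene symbols of the count table, and 7 of the 9 passed the filter on low counts together with 14864 genes in all. Capn14 was not analysed here, and Klk5 and Serpinb13, with 67 and 50 reads over all libraries, were too low for the test. RNA-seq was performed on poly(A)-selected RNA from frozen esophagi of MGL KO and MGL WT mice, with 4 libraries per genotype. MGL, monoacylglycerol lipase, is encoded by Mgll and degrades the endocannabinoid 2-arachidonoylglycerol. The mice were healthy and untreated, MGL was deleted globally rather than in the epithelium alone, and the line was bred in-house with WT littermates. Male and female mice served in the study, aged 8 to 12 weeks in general and 10 to 14 weeks where esophageal thickness was measured, but the age and sex behind each library were not given in the sources used here. The p-values below measure the spread between these libraries.

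The squamous epithelium of the esophagus renews itself from a basal layer, and its flattened upper cells are held together by desmosomes until they are shed. Kallikreins are secreted serine proteases that work in a cascade: KLK5 activates other kallikreins, and KLK5 and KLK7 cut desmosomal proteins such as corneodesmosin and desmoglein 1. LEKTI, the product of SPINK5, blocks KLK5 and KLK7, and its loss causes Netherton syndrome, in which the barrier breaks down. Cystatin E/M, from CST6, restrains cathepsins and legumain during cornification, while clade B serpins act mostly inside cells. CAPN14, a calpain of the esophageal epithelium, lies at a genetic risk locus of EoE.

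The 5 kallikreins lie in the kallikrein cluster of mouse chromosome 7. The 13 kallikrein genes listed here, from Klk14 to Klk1, span 539 kb of GRCm39 (chr7:43339842-43879048), all on the plus strand, and the Klk1b genes between Klk15 and Klk1 were not analysed here. From the proximal end, Klk13 (chr7:43361812-43377295) is followed by Klk10 (chr7:43430448-43436793), Klk8 (chr7:43446969-43453250), Klk7 (chr7:43460718-43465809) and Klk5 (chr7:43491395-43500605), with other kallikreins between some of them. Serpinb5 (chr1:106788875-106811078) and Serpinb13 (chr1:106908714-106928925) lie 97.6 kb apart on the plus strand of chromosome 1. Cst6 (chr19:5394733-5399602) is on the minus strand. Klk8, Klk10 and Klk13 overlap 2310002F09Rik on the opposite strand, which was listed with 4 to 44 counts per library, and the use of strand in counting is not given in the sources used here. Klk13 also overlaps Gm44814 on its own strand, a gene not analysed here. Reads of these 3 kallikreins and of the genes that overlap them could therefore not be told apart with certainty.

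The sequences before the starts of Klk10, Klk8 and Klk7 are shown because Klk7 and Klk8 were the 2 described genes with an unadjusted p under 0.05 beside the squamous markers, as given further on, and Klk10, in the same cluster, was not. They are from RefSeq's promoter table, located in GRCm39 by an exact match of the bases, on the plus strand from 5′ to 3′, and end at the base before the GENCODE start of the gene. Capitals mark CACCC or its reverse complement GGGTG, the core letters bound by KLF factors.
Klk10, chr7:43430228-43430447: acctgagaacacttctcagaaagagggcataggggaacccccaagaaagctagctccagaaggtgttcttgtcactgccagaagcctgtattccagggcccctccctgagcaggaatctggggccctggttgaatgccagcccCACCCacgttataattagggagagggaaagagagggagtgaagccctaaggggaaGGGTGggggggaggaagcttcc
Klk8, chr7:43446751-43446968: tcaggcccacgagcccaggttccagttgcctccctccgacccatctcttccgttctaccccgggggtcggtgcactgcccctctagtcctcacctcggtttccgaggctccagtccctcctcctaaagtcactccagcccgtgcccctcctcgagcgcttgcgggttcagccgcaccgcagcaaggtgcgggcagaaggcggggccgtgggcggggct
Klk7, chr7:43460468-43460717: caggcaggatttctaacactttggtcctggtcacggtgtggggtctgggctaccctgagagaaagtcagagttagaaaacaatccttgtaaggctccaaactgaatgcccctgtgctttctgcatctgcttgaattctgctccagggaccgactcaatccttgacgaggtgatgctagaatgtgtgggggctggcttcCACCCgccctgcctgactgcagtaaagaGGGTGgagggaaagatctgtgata
Within windows of 250 bases, 6 of the described genes had an entry (Klk5, Klk7, Klk8, Klk10, Klk13 and Serpinb5). CACCC, on either strand, was present in 5 of the 6, all but Klk8, and in 52.0% of 32851 promoters of the same table. The AP-1 letters TGANTCA were found before Serpinb5 alone, against 6.75% of all promoters. The letters TATAAA of a TATA box and AACCNGTT of grainyhead-like factors were found in 0 of the 6, against 12.4% and 1.79% of all promoters. None of these motifs contains another, and a match or its absence is a description of these windows only. The windows of Klk10, Klk8 and Serpinb5 ran 30, 32 and 30 bases past the GENCODE start, that of Klk13 ran 179 bases past it and that of Klk5 lay wholly inside the gene, so the Klk7 window alone ended at the start.

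The libraries held between 13479069 and 17090152 counts. Mgll, the deleted gene, matched the labels in every library: it was at 12.55 to 15.97 normalized CPM (counts scaled to a common library total) in MGL KO and at 66.61 to 88.3 CPM in MGL WT, a log2 fold change of -2.57 (SE 0.13, adjusted p = 0.000133 by edgeR's quasi-likelihood test). Squamous markers were abundant, although the differentiation markers Rhcg, at 0 in all libraries, Crnn, at 0 in 7 of 8, and Ivl, at most 0.799 CPM, had almost no counts. The libraries differed in tissue makeup within genotypes. The summed level of 14 differentiated squamous markers ranged from 2297 to 13620 CPM in MGL KO and from 3231 to 14730 CPM in MGL WT, with MGL KO 2 and MGL WT 3 the lowest. MGL KO 2 was also the highest in 12 skeletal muscle markers, at 98620 CPM. MGL KO 4 held 11570 CPM of 8 airway secretory and gland markers against at most 71.6 CPM in the other libraries, 628.5 CPM of 8 airway ciliated markers against at most 21.1 CPM, and 136.3 CPM of 8 stomach markers. Of that last sum, Tff2 made up 88.7 CPM and Muc5ac 47.0 CPM, both genes of mucous cells, and 5 of the 8 stomach markers, Atp4b and Tff1 among them, were at 0 in that library. In such bulk tissue, fewer cells of a type and less RNA per cell cannot be told apart. Eosinophil markers summed to at most 2.02 CPM, and Epx, the eosinophil peroxidase gene, was listed at 0 in all libraries. A count near 0 in this table does not show that a gene or cell type is absent: Tagln, a gene of smooth muscle, had 4 to 17 counts per library where Acta2 had 7187 to 12914, and Tnnc2, a gene of fast skeletal muscle, 18 to 43 where Tnni2 had 32413 to 75334.

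Among the kallikreins, Klk10 was the most abundant of the 5 per length of exon. In MGL WT libraries 1 to 4 it was at 30.4, 49.1, 14.8 and 29.3 CPM, and in MGL KO libraries 1 to 4 at 61.8, 8.21, 28.4 and 26.6 CPM. The highest and the lowest value both belonged to MGL KO, and the other libraries of the 2 genotypes interleaved. The log2 fold change of Klk10 was 0.02 (SE 0.54, 95% interval -1.20 to 1.24, adjusted p = 0.992 by edgeR's quasi-likelihood test).

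Klk13, a trypsin-like kallikrein, was at 18.0, 36.6, 9.47 and 13.7 CPM in MGL WT and at 27.3, 4.33, 17.7 and 15.3 CPM in MGL KO. MGL WT 2 was the highest and MGL KO 2 the lowest library, and the groups overlapped. Its log2 fold change of -0.26 (SE 0.54, 95% interval -1.49 to 0.97) had an adjusted p of 0.899 by edgeR's quasi-likelihood test.

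Klk8, also known as neuropsin, was at 8.70, 18.5, 4.47 and 8.08 CPM in MGL WT and at 12.3, 0.812, 10.6 and 4.67 CPM in MGL KO. With 9 counts in MGL KO 2 and 324 in MGL WT 2, it had the widest range of the 7 tested genes, 22.8-fold from the lowest to the highest library. The log2 fold change was -0.48 (SE 0.69, 95% interval -2.04 to 1.08, adjusted p = 0.844 by edgeR's quasi-likelihood test).

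Klk7, the chymotrypsin-like kallikrein that cuts corneodesmosin, was at 7.87, 13.2, 6.90 and 11.3 CPM in MGL WT and at 10.3, 1.44, 8.32 and 3.32 CPM in MGL KO. MGL KO 2 and MGL KO 4 lay below every MGL WT library, whereas MGL KO 1 and MGL KO 3 lay among them. The mean was 9.81 CPM ± 2.93 (SD, n = 4) in MGL WT and 5.84 CPM ± 4.15 (SD, n = 4) in MGL KO. Klk7 had the largest difference of the 7 tested genes, a log2 fold change of -0.74 (SE 0.53, 95% interval -1.93 to 0.46), which did not pass the test (adjusted p = 0.701 by edgeR's quasi-likelihood test). Without MGL KO 2 and MGL KO 4, left out after seeing the data for their markers, it was -0.07 (SE 0.29). These 2 are also the MGL KO libraries with the least Klk7, and without MGL WT 3, which was low in squamous markers as well, it was -0.87 (SE 0.58).

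Klk5, the kallikrein that starts the cascade in skin, was close to the detection limit. It was at 0.446, 0.685, 0.395 and 0.587 CPM in MGL WT and at 0.551, 0, 0.987 and 0.393 CPM in MGL KO, where 3 counts correspond to between 0.167 and 0.271 CPM. The mean log2 CPM differed by -0.65 between MGL KO and MGL WT (p = 0.657, two-sided exact permutation test of 4 against 4 libraries, which cannot give less than 0.0286). No difference in Klk5 was found at 0 to 16 counts per library, which does not show that its levels were equal.

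Of the inhibitors, Spink5 had the highest mean level per length of exon. It was at 140.5, 263.9, 134.3 and 170 CPM in MGL WT and at 269.5, 67.4, 180.1 and 102.2 CPM in MGL KO. The highest library was MGL KO 1, closely followed by MGL WT 2, and the lowest was MGL KO 2. The gene lies on the plus strand of GRCm39 at chr18:44096302-44155568. Its log2 fold change was -0.19 (SE 0.41, 95% interval -1.12 to 0.73, adjusted p = 0.900 by edgeR's quasi-likelihood test).

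Cst6 was at 4.13, 12.7, 3.75 and 6.98 CPM in MGL WT and at 11.3, 3.79, 7.09 and 4.61 CPM in MGL KO. Each genotype had 1 library above 11 CPM, and it was the only one of the 9 genes whose lowest library was MGL WT 3 rather than MGL KO 2. The log2 fold change was -0.04 (SE 0.47, 95% interval -1.10 to 1.02, adjusted p = 0.984 by edgeR's quasi-likelihood test).

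Serpinb5 encodes maspin, a serpin of epithelial cells that does not inhibit proteases in the classical way. It was at 64.0, 96.0, 42.9 and 61.7 CPM in MGL WT and at 115.5, 42.6, 72.4 and 72.9 CPM in MGL KO. It varied least of the 7 tested genes, 2.71-fold from the lowest to the highest library. The log2 fold change was 0.20 (SE 0.31, 95% interval -0.51 to 0.91, adjusted p = 0.860 by edgeR's quasi-likelihood test).

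Serpinb13, an inhibitor of cathepsins in stratified epithelium, was near the limit of detection as well, with 0 to 16 counts per library. It was at 0.279, 0.913, 0.197 and 0.130 CPM in MGL WT and at 0.857, 0, 0.370 and 0.225 CPM in MGL KO. MGL WT 2 and MGL KO 1, the libraries with most differentiated squamous markers, were the highest for this gene too. The difference in mean log2 CPM was -0.31 (p = 0.83, two-sided exact permutation test).

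**Figure D1:**
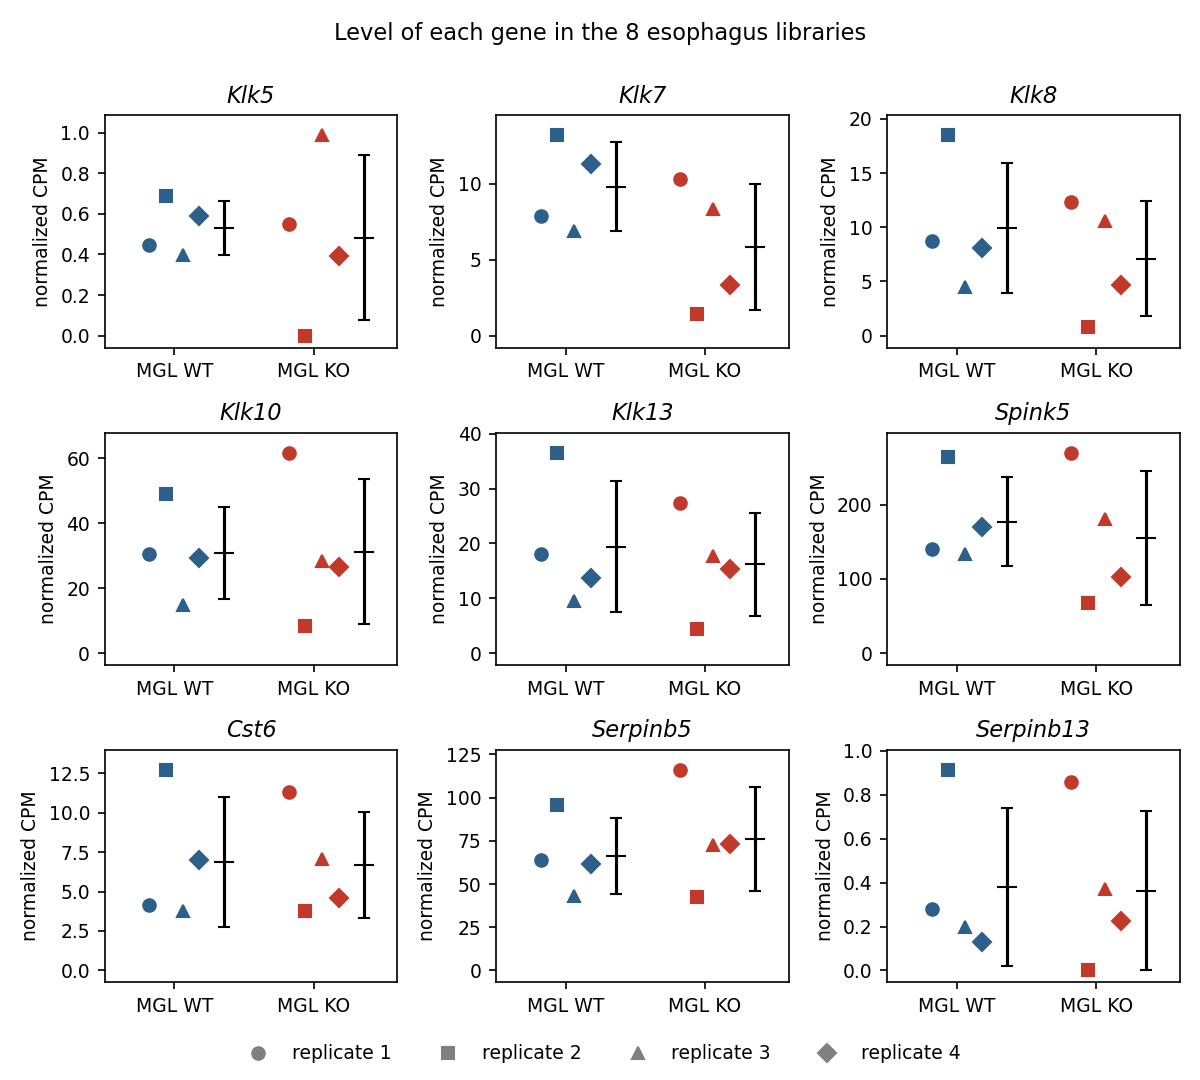
Normalized CPM (linear axis) of the 9 genes with a row, in 4 MGL WT (blue) and 4 MGL KO (red) libraries, with the replicate number as the symbol and the mean ± SD beside each group. The groups overlap in every panel, and the square of MGL KO 2 is the lowest point in all panels but that of Cst6.

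The comparison of genotypes asked whether the loss of MGL alters these genes in the healthy esophagus. Of the 7 tested genes, 0 passed an adjusted p of 0.05 by edgeR's quasi-likelihood test, where 0.0471% of all 14864 tested genes did (0.0202% higher and 0.0269% lower in MGL KO). Of the 7, 0 had an unadjusted p under 0.05, where 8.65% of all genes did. The count of called genes was also 0 of 7 by edgeR's exact test on the same genes (0.437% of all genes), by DESeq2 (0.981%) and by limma-voom (0.168%), and 0 of 9 by edgeR's exact test without the filter on low counts (0.185%). At an unadjusted p under 0.05 the count was 0 by each of these, where 7.46% of all genes passed by the exact test, 9.70% by DESeq2, 11.4% by limma-voom and 6.03% by the exact test with no filter. Every MGL KO library lay on 1 side of every MGL WT library for 0 of the 7 genes, against 6.02% of all tested genes. The log2 fold change was below 0 for 5 of the 7, against 47.0% of all genes, and their median was -0.19, against 0.02 over all genes. The intervals were wide: for Klk8 they ran from -2.04 to 1.08 and for Serpinb5, the narrowest, from -0.51 to 0.91. A missed threshold at this spread does not show that the levels were equal.

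The direction of most of these differences rested on single libraries. Leaving out MGL KO 2 turned Klk13, Spink5 and Cst6 to 0.05, 0.06 and 0.15, and leaving out MGL WT 2 turned Klk8, Klk13, Spink5 and Cst6 to 0.01, 0.24, 0.06 and 0.44. Leaving out MGL KO 1 turned Klk10 to -0.54 and Serpinb5 to -0.07, leaving out MGL WT 3 turned Klk10 to -0.21, and leaving out MGL KO 4 turned Cst6 to 0.11. Without MGL KO 2 and MGL KO 4 the log2 fold changes were 0.20 for Klk8, 0.55 for Klk10, 0.21 for Klk13, 0.35 for Spink5, 0.42 for Cst6 and 0.51 for Serpinb5, and 0 of the described genes passed the threshold, where 2 of 15277 tested genes did. Klk7 was the only one of the 7 that stayed below 0 whichever library was left out, between -1.16 and -0.42.

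Across libraries, the genes rose and fell with the differentiated squamous markers. The mean log2 CPM of these markers was 4.40, 5.25, 3.47 and 4.41 in MGL WT and 5.27, 2.87, 4.74 and 4.28 in MGL KO, so the order of the libraries was not set by genotype. By Pearson's r over the 8 libraries, Klk10 was the highest (r = 0.98, permutation p = 0.000496, Spearman's rho = 0.90, permutation p = 0.00456), with r = 0.92 without MGL KO 2 and MGL WT 3, the 2 libraries farthest from the median, and by rho Spink5 was the highest. Klk13 gave r = 0.97 (permutation p = 0.000397) and rho = 0.86 (permutation p = 0.0107), with r = 0.92 without these 2. Klk8 gave r = 0.93 (permutation p = 9.92e-05) and rho = 0.95 (permutation p = 0.00114), with r = 0.87 without these 2, and it was the steepest at 1.53 log2 units per log2 unit of the markers.

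The slopes of the inhibitors on the same markers ranged from 0.58 for Serpinb5 to 1.41 for Serpinb13, which was near the limit of detection. Spink5 gave r = 0.90 (permutation p = 0.00275) and rho = 0.98 (permutation p = 0.000397), with a slope of 0.73 and r = 0.94 without the 2 libraries. Serpinb5 gave r = 0.94 (permutation p = 0.00179) and rho = 0.83 (permutation p = 0.0154), with a slope of 0.58 and r = 0.91 without the 2. Cst6 gave r = 0.86 (permutation p = 0.00685) and rho = 0.93 (permutation p = 0.00223), with a slope of 0.72 and r = 0.93 without the 2. The slopes of the 5 kallikreins lay between 1.01 and 1.53, and differences in slope were not tested. Klk7 had the lowest Pearson's r of the 7 tested genes, at 0.80 (permutation p = 0.019), rho = 0.86 (permutation p = 0.0107), above the 0.83 of Serpinb5. Its r was 0.63 (permutation p = 0.163) without the 2 libraries and 0.53 (permutation p = 0.233) without MGL KO 2 alone, so over both genotypes together this relation rested on that library. Within genotypes, over 4 libraries each and as a description, its r was 0.97 in MGL KO, MGL KO 2 included, and 0.87 in MGL WT. Of the 2 low genes, Serpinb13 gave r = 0.92 (permutation p = 0.00139) and rho = 0.83 (permutation p = 0.0154), with r = 0.94 without the 2. For Klk5, r fell from 0.81 (permutation p = 0.00977; rho = 0.81, permutation p = 0.0218) to 0.44 without them and to 0.59 without MGL KO 2 alone, so its relation rested on these libraries.

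In all, 18 relations were computed, of the 9 genes with the differentiated and with 10 basal squamous markers. After Benjamini-Hochberg adjustment over the 18, Pearson's r passed 0.05 in 18 (the adjusted permutation p was at most 0.0414) and Spearman's rho in 15. Before adjustment all 9 genes had a positive r with a permutation p under 0.05 for either list, as did 8.61% of all 14864 tested genes for the differentiated and 12.3% for the basal markers. With the basal markers, whose summed level varied only from 3694 to 6529 CPM, r lay between 0.67 for Cst6 and 0.93 for Klk10. Without the same 2 libraries, r with the basal markers was lower for 8 of the 9 genes, such as 0.82 for Klk10, 0.33 for Klk8 and -0.10 for Klk5, and higher for Cst6, at 0.71. Leaving out MGL KO 2 alone took the basal r to 0.23 for Klk7, 0.40 for Klk5, 0.62 for Klk8, 0.71 for Klk13, 0.44 for Spink5 and Serpinb13 and 0.64 for Cst6, where the permutation p was no longer under 0.05, and left Klk10 at 0.84 and Serpinb5 at 0.83, where it was. Over the 8 omissions of 1 library, the basal permutation p stayed under 0.05 in 1 for Cst6, 2 for Klk7 and 4 for Spink5. For the other genes it did so in 6 to 8. Within genotypes, over 4 libraries each and given as a description, r with the differentiated markers was 0.90 to 1.00 in MGL KO and 0.75 to 1.00 in MGL WT. The genes, the markers and the muscle genes share each library's total, so that these levels were not independent of each other.

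**Figure D2:**
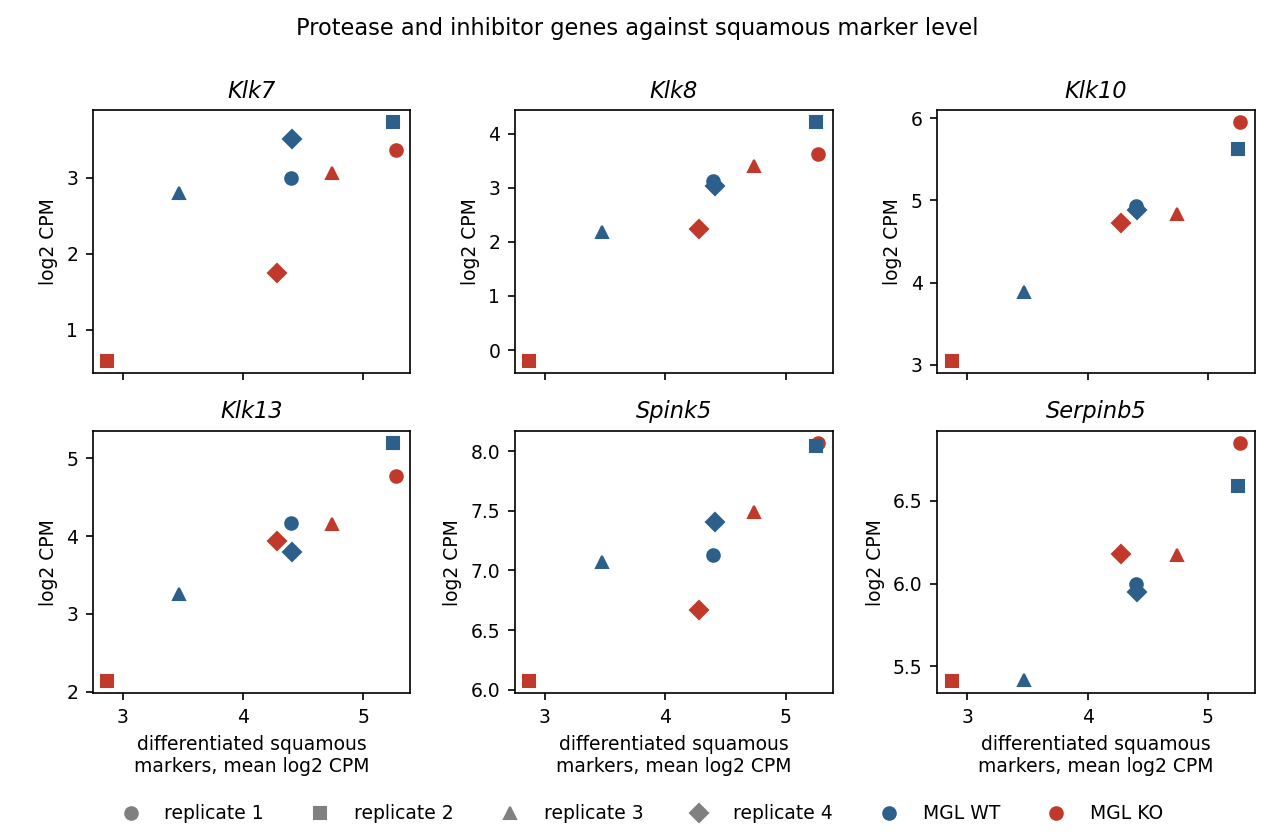
Log2 CPM of Klk7, Klk8, Klk10, Klk13, Spink5 and Serpinb5 (vertical axis) against the mean log2 CPM of 14 differentiated squamous markers (horizontal axis) in the 4 MGL WT (blue) and 4 MGL KO (red) libraries, with the replicate number as the symbol. The points rise broadly from left to right in every panel, and for Klk7 each red point is lower relative to the markers, by -1.68 or less, than any blue point, by -1.52 or more.

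Relative to these markers, Klk7 was lower in MGL KO before adjustment over all genes. Log2 CPM of Klk7 minus the mean of the markers, a scale added after seeing the data that takes the slope on the markers as 1 (1.01 for Klk7), was -1.41, -1.52, -0.67 and -0.90 in MGL WT and -1.90, -2.28, -1.68 and -2.53 in MGL KO. All 4 MGL KO libraries were below all 4 MGL WT libraries on this scale, MGL KO 1 and MGL KO 3 included. The mean was -1.13 ± 0.41 (SD, n = 4) in MGL WT and -2.10 ± 0.38 (SD, n = 4) in MGL KO, a difference of -0.97 (p = 0.0286, two-sided exact permutation test, the smallest value that 4 against 4 libraries allow), and 9 genes were compared on this scale with no adjustment. On this scale the groups did not overlap for Klk7 among the 7 tested genes and for 0.444% of all tested genes. Subtracting the markers adds their spread to genes that do not follow them, and 6.02% did not overlap without it, so that share is no measure of how rare such a gene is. Krt6a, 1 of these markers, was itself higher in MGL KO before adjustment, at a mean of 8.47 CPM against 2.57 CPM in MGL WT. Its log2 fold change was 1.72 (SE 0.49, unadjusted p = 0.00691, adjusted p = 0.478 by edgeR's quasi-likelihood test). This raises the marker mean in MGL KO, here and in the covariate below. Whether the groups, at -1.68 and -1.52 where closest, stay apart without Krt6a was not tested.

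With the differentiated markers as a covariate in edgeR's quasi-likelihood test, the log2 fold change of Klk7 was -0.96 (SE 0.29, 95% interval -1.61 to -0.30, unadjusted p = 0.00976) but the adjusted p over all genes was 0.371. Klk8 was next at -0.69 (SE 0.24, 95% interval -1.23 to -0.14, unadjusted p = 0.0203, adjusted p = 0.405 by the same edgeR test), and its difference relative to the markers was -0.78 (p = 0.0571, exact permutation test), with MGL KO 3 at -1.33 inside the MGL WT range of -1.38 to -1.04. These 2 of the 7 genes had an unadjusted p under 0.05 in that fit, where 10.6% of all genes did, and 0 of 7 passed the adjusted threshold, where 0.0673% did. Serpinb5, at 0.23 (SE 0.10), had an unadjusted p of 0.0534 by the same edgeR test. The standard error of Klk10 fell from 0.54 to 0.13 with the covariate, and its log2 fold change was -0.07. Klk13 and Spink5 were both at -0.26 (SE 0.15 and 0.18) and Cst6 at 0.05 (SE 0.27). With the basal markers as the covariate, Klk7 was at -0.85 (SE 0.35, unadjusted p = 0.0403, adjusted p = 0.378 by the same edgeR test). Of the 7 genes, that 1 had an unadjusted p under 0.05 there, where 12.7% of all genes did, and 0 passed the adjusted threshold, where 0.101% did. With skeletal muscle markers as the covariate, Klk7 was at -0.87 (SE 0.51, unadjusted p = 0.128 by the same edgeR test), and 0 of the 7 genes had an unadjusted p under 0.05, where 13.1% of all genes did.

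**Figure D3:**
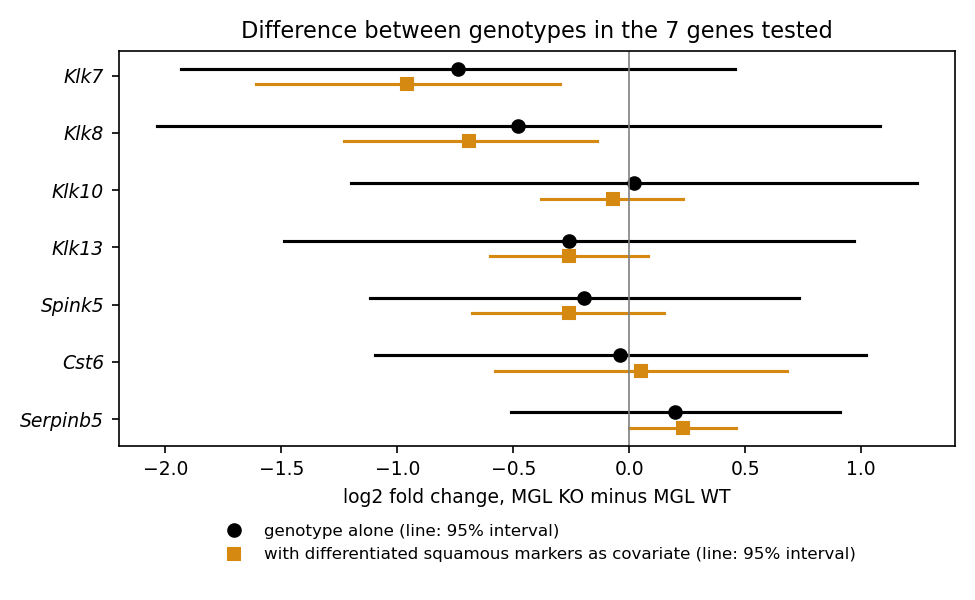
Log2 fold change of MGL KO against MGL WT for the 7 tested genes with 95% intervals, from edgeR's quasi-likelihood test without a covariate and with the differentiated squamous markers as a covariate. All intervals without the covariate cross 0, and with it those of Klk7 (-1.61 to -0.30) and Klk8 (-1.23 to -0.14) lie below 0 before adjustment over all genes.

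The genes also moved with each other. Over the 21 pairs of the 7 tested genes, r of log2 CPM across the 8 libraries lay between 0.59, for Klk7 with Serpinb5, and 0.97, for Klk10 with Klk13, with a median of 0.88. Klk7 was closest to its cluster neighbour Klk8, at 0.94, and to the inhibitor Spink5, at 0.92. Pairs share their libraries and, for the kallikreins, the chromosomal cluster, so these values are given as a description.

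Since LEKTI, the product of SPINK5, blocks KLK5 and KLK7, the summed level of the 5 kallikreins was set beside Spink5. Most of this sum came from Klk10 and Klk13, at 31.1 and 17.8 CPM on average over all libraries. Klk7 and Klk5 added 7.83 and 0.505 CPM, so the ratio says little of those 2 genes. The sum of the 5 kallikreins was 65.3, 118.1, 36.0 and 62.9 CPM in MGL WT and 112.2, 14.8, 66.0 and 50.4 CPM in MGL KO. As a percentage of the Spink5 level this was 46.5%, 44.8%, 26.8% and 37.0% in MGL WT and 41.6%, 22%, 36.6% and 49.3% in MGL KO. The mean log2 ratio was -1.40 ± 0.36 (SD, n = 4) in MGL WT and -1.48 ± 0.50 (SD, n = 4) in MGL KO, a difference of -0.08, smaller than either SD. It lay between -0.25, without MGL WT 3, and 0.15, without MGL KO 2, when 1 library was left out. The 2 lowest percentages belonged to MGL WT 3 and MGL KO 2, the libraries with the lowest differentiated markers. This ratio is of reads and was not scaled for length.

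Per kilobase of merged exon, the levels could be set in order between genes. Spink5 led at 34.7 CPM per kb ± 15 (SD, n = 8), followed by Serpinb5 at 25.6 ± 8.97 and, well below, Klk10 at 8.41 ± 4.67. Klk13, Klk8 and Klk7 came next at 5.53, 5.42 and 4.07 CPM per kb, then Cst6 at 1.66, Klk5 at 0.377 and Serpinb13 at 0.222. Neighbours in this order overlapped in their ranges over libraries, except Cst6 and Klk5. Klk10 was nevertheless above Klk13 in 8 of 8 libraries and Serpinb5 above Klk10 in 8 of 8, whereas Klk13 was above Klk8, Klk8 above Klk7 and Klk5 above Serpinb13 in 5 of 8. Spink5 was above Serpinb5 in 6 of 8, with MGL KO 2 and MGL KO 4 the other way. Taking the longest transcript as the length left the order as it was.

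Among the 13 listed kallikreins, the gene with the highest mean level per length was not among the 5. Klk11 was at 49.1 CPM per kb on average, from 16.3 to 74.3, and Klk14 at 14.4, from 1.35 to 41.9. Between Klk10 and Klk8, Klk9 was at 1.11 CPM per kb, and between Klk7 and Klk5, Klk6 was at 0.0714. At the distal end, Klk4 and Klk15 were at 0 counts in all libraries and Klk1 at 0 in 7 of 8. MGL KO 2 was the lowest library for Klk10, Klk13, Klk8, Klk7 and Klk5 and for Klk14, Klk12 and Klk11, but not for Klk9, which was lowest in MGL KO 1, nor for Klk6, where it was the second highest.

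**Figure D4:**
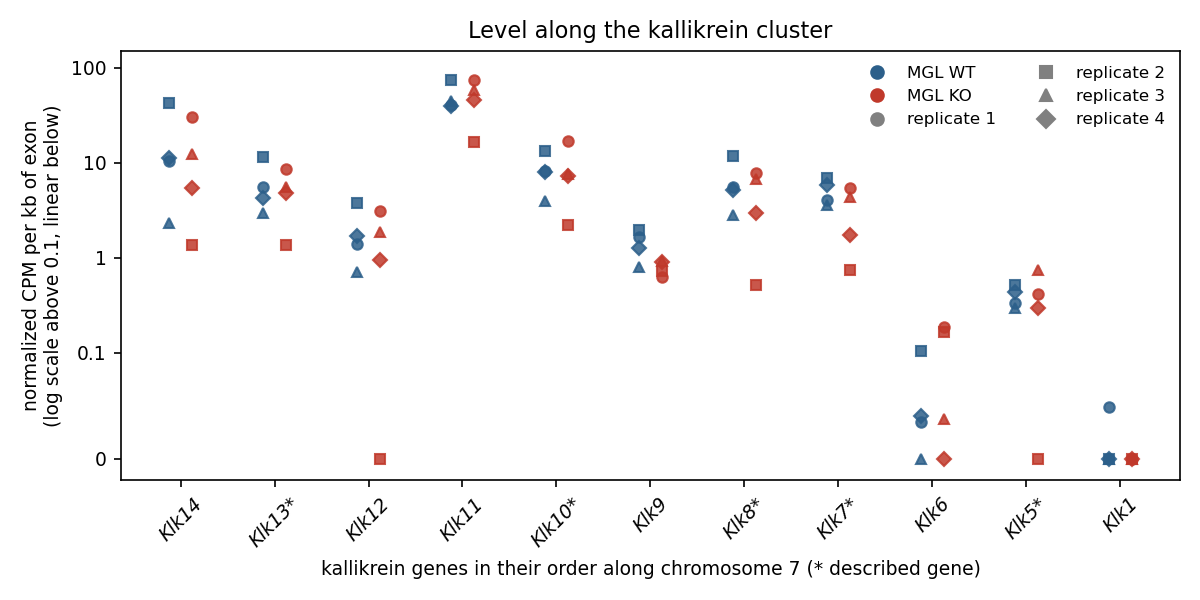
Normalized CPM per kb of merged exon (log axis above 0.1, linear below) for listed kallikrein genes in their order along chromosome 7, in 4 MGL WT (blue) and 4 MGL KO (red) libraries, with described genes starred and Klk4 and Klk15, at 0 in all libraries, left out. Levels change strongly from gene to neighbouring gene, with Klk11 at 16.3 to 74.3.

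The wider pathway was described with 104 further genes, of which 71 were tested and 0 passed the adjusted threshold by edgeR's quasi-likelihood test (the smallest adjusted p was 0.499). At an unadjusted p under 0.05, 2 were higher and 2 lower in MGL KO, against 8.65% of all genes in either direction. Of the other kallikreins, 4 of 8 were tested and all 4 had a log2 fold change below 0. Klk9 had the largest difference, -0.84 (SE 0.33, unadjusted p = 0.032 and adjusted p = 0.550 by edgeR), at 2.45, 2.91, 1.18 and 1.89 CPM in MGL WT and 0.918, 1.08, 1.36 and 1.35 CPM in MGL KO. Klk14, Klk12 and Klk11 were at -0.42 (SE 0.94), -0.34 (SE 0.86) and -0.02 (SE 0.41). Of the calpains with their small subunit and their inhibitor calpastatin, 12 of 16 were tested, with log2 fold changes between -0.37, for Capn15, and 0.16. The small subunit Capns1, calpastatin Cast and Capn1 had the highest levels, at 289.8, 207.9 and 196.9 CPM in MGL WT and 321.3, 230.2 and 184.2 CPM in MGL KO.

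Among the 14 other surface serine proteases, all tested, Tmprss11a had the smallest p. It was at 26.3 CPM ± 9.14 (SD, n = 4) in MGL WT and at 14.3 CPM ± 3.94 (SD, n = 4) in MGL KO, with a log2 fold change of -0.88 (SE 0.28, unadjusted p = 0.0114, adjusted p = 0.499 by edgeR). The groups touched, since MGL KO 1 at 18.5 CPM was above MGL WT 3 at 17.8 CPM. Furin, the proprotein convertase, Tmprss13 and matriptase (St14) were the most abundant, with log2 fold changes of 0.14 (SE 0.12), -0.18 (SE 0.32) and 0.57 (SE 0.47). St14 was at 84.0 CPM in MGL KO 4, the library with the high airway markers, at 13.1 to 36.1 CPM in the other MGL KO libraries and at 20.8 to 32.4 CPM in MGL WT. Of the proteases of cornification, 9 of 10 were tested. Cathepsin B (Ctsb) had the smallest p at -0.53 (SE 0.26), with 770 CPM in MGL WT 1 against 292 to 469 CPM in the other 7 libraries. Legumain (Lgmn), a target of cystatin E/M, was at -0.22 (SE 0.19) and cathepsin D (Ctsd) at 0.12 (SE 0.19).

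A list of other Kazal, Kunitz and WAP inhibitors also held A2ml1, an inhibitor of the alpha-2-macroglobulin family. Of its 19 genes 6 were tested, and Wfdc2 and A2ml1 had an unadjusted p under 0.05, both higher in MGL KO. Wfdc2 was at 20.6 to 22.9 CPM in MGL WT and at 32.7, 36.7, 25.6 and 385 CPM in MGL KO, and A2ml1 at 0.892 to 1.71 CPM in MGL WT and at 3.80, 0.541, 1.05 and 135 CPM in MGL KO. For both, the high value was that of MGL KO 4, the library with the high airway markers. For Wfdc2 the other 3 MGL KO libraries were also above all MGL WT libraries, with a log2 fold change of 2.44 (SE 0.87, adjusted p = 0.523 by edgeR). Such groups without overlap were found for 1 of the 71 tested genes of the wider pathway, where 6.02% of all tested genes had them. Spint2, a membrane-bound Kunitz inhibitor, was at 0.37 (SE 0.29), with 269 CPM in MGL KO 4 and 95.6 to 146 CPM in the other 7 libraries, and Slpi, the secretory leukocyte peptidase inhibitor, at -0.26 (SE 0.65). Of the other cystatins, 3 of 9 were tested, Cst3 and Cstb at 0.15 (SE 0.16 and 0.19) and Csta1 at -0.27 (SE 0.67).

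Of the other clade B serpins, 14 of 18 were tested, 10 with a log2 fold change below 0. Serpinb6a was the most abundant, at 1120 CPM in MGL WT and 1278 CPM in MGL KO, followed by Serpinb1a and Serpinb12. Serpinb7 had the smallest p, at 2.63 CPM ± 1.22 (SD, n = 4) in MGL WT and 1.23 CPM ± 0.798 (SD, n = 4) in MGL KO (adjusted p = 0.603 by edgeR). Of the substrates and the receptor F2rl1, 9 of 10 were tested, with log2 fold changes between -0.75 and 0.36. The desmosomal genes Dsg3, Dsc3 and Dsc2, with the highest levels, were at 0.01 (SE 0.31), -0.13 (SE 0.32) and 0.04 (SE 0.44). Corneodesmosin (Cdsn), cut by KLK5 and KLK7, was at -0.51 (SE 0.34). The desmoglein 1 genes Dsg1a and Dsg1b were at -0.75 (SE 0.67) and -0.54 (SE 0.56), with overlapping groups.

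The genes most alike in pattern were those with the highest r of log2 CPM over the 8 libraries among 14857 other tested genes, up to 3 for each. For Klk8 these were Foxd2os, Wfdc5 and Ankrd35 (0.996, 0.994 and 0.993), and for Klk7 Fyco1, Il17rc and Penk (0.981 each). Klk10 was most alike to Perp and Ly6d (0.988 each), and Klk13 to Tlcd3a and Rbp2 (0.988 each) and S100a7a (0.987). Spink5 was most alike to the cystatin Csta1 and to Dkkl1 (0.968 each) and Dapl1 (0.964), and Cst6 to Fdps and Thop1 (0.955 each) and Cyp3a13 (0.949). Serpinb5 was most alike to Gm94 (0.993), Crabp2 and Tgm3 (0.990 each), of which Tgm3 is 1 of the 14 differentiated markers. These values rest on 8 libraries shared by all genes and are given as a description.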

How the data were processed

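Poly(A)-selected RNA from 4 MGL KO and 4 MGL WT mouse esophagi was sequenced. Per the labels and the study's methods, the authors checked reads with FastQC 0.11.9, trimmed them with Cutadapt, aligned them to GRCm39 with STAR 2.7.10b and deposited whole-number counts per gene symbol, without normalization. The annotation, counting tool and use of strand are not given in the sources used here. Totals per library were 13479069 to 17090152 counts, and no 2 libraries of a group agreed within sampling noise (chi-square per degree of freedom at least 13.6).

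Genes were filtered with filterByExpr (minimum count 10), which left 14864 of 22721 symbols with a count. CPM used TMM factors (0.82 to 1.11), and log2 CPM a prior count of 1. MGL KO was compared with MGL WT by edgeR 4.0.16 (quasi-likelihood test, R 4.3.3), with Benjamini-Hochberg adjustment over all tested genes at 0.05. The study itself used the exact test of edgeR, run here as an alternative beside DESeq2 1.42.0, limma 3.58.1 (voom with sample weights), other scalings and filters, marker covariates, a replicate block and leaving out libraries. The SE is the absolute log2 fold change over the square root of F. Single values were compared by exact permutation. The quasi-likelihood test, the exact test, DESeq2 and limma-voom were also run on simulated MGL KO and MGL WT counts. That simulation held no differences in tissue makeup and did not cover the fits with marker covariates. Positions and lengths are from GENCODE M39. Detection limits of 3 counts cover counting error only.

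Named genes were Mgll, the described genes, and in each related list the 3 with the highest mean, any passing the threshold and that with the smallest p. In marker lists, the 2 highest and defining markers at 0 could be named, and for each tested gene the 3 most alike, of which 1 is not reported here. Other listed genes, such as Krt6a, Dsg1a, Dsg1b, Tagln, Tnnc2 and Tnni2, were chosen after their values were seen. The described genes and the lists were chosen with earlier results of these data known.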

Additional observations from a re-analysis of the deposited data

Results flagged for a closer look

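In each of 102 groups of 4 libraries, the highest and the lowest library were compared with the rest by Dixon's ratio. In 14 groups a library lay far from the rest, where about 5.1 would by chance if values were normal and independent. These values come from the same 8 libraries and are not independent. None of them was for one of the described genes.

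Of the related genes, Klk11 was at 153 CPM in MGL WT 2 against 91.1 CPM in the next library of its group. Capn15 was at 53.3 CPM in MGL WT 2 (next 37.9) and Spint2 at 146 CPM in the same library (next 116). Capns1 was at 340 CPM in MGL WT 3 (next 277). Cst3 was at 390 CPM in MGL KO 2 (next 270). Wfdc2 was at 385 CPM in MGL KO 4 (next 36.7), and A2ml1 at 135 CPM in the same library (next 3.80).

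Of the marker lists, the basal squamous sum was 4030 CPM in MGL WT 3 (next 5570), the lowest library of its group for every described gene with a row except Serpinb13. MGL KO 4 held 628 CPM of airway ciliated markers (next 21.1), 11600 CPM of airway secretory and gland markers (next 71.6) and 136 CPM of stomach markers (next 2.62). The remaining sums were low: 3.88 CPM of airway secretory markers in MGL WT 2 (next 1.82), 4.80 CPM of thyroid markers in MGL WT 1 (next 0.913) and 6.25 CPM of stomach markers in MGL WT 3 (next 1.45). The part of these marker levels in the values of the described genes was not tested, beyond the fits with squamous and muscle markers and those without MGL KO 2 and MGL KO 4.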

How the results depend on the processing

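The count of described genes past the adjusted threshold was 0 under all 23 alternatives run, and so was that of the related genes. Over all genes, the count of 7 became 65 and 42 by edgeR's exact test on filtered and on all genes, 138 by DESeq2, 25 by limma-voom, 2 with robust estimation, 2 with no filter on low counts, 15 and 16 with basal squamous and skeletal muscle markers as covariates, 2 without MGL KO 2 and MGL KO 4, and between 2 and 5 when any single library was removed; what caused these shifts was not tested. Replicate numbers were only shared between genotypes (correlations of same-numbered deviations -0.14, -0.28, -0.14 and 0.08). With the replicate block, 2 genes were called, none of them described here, and Klk10 and Cst6 turned to -0.08 and 0.03.

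Of 104 log2 fold changes of the 7 genes under alternatives that kept all libraries, 11 changed sign. Klk10 (0.02) turned to 0.00, marginally below 0, with library size alone, to -0.07, -0.03 and -0.18 with the differentiated, basal and muscle covariates, and to -0.10 relative to the differentiated markers. Cst6 (-0.04) turned to 0.02 by limma-voom, 0.05 and 0.04 with the differentiated and basal covariates, and 0.10 relative to the markers. Klk5's correlation with basal markers turned to -0.10 without the 2 farthest libraries. Without MGL KO 2 and MGL KO 4, Klk8, Klk13, Spink5 and Cst6 turned to 0.20, 0.21, 0.35 and 0.42.

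With 1 library left out, 16 of 63 changed sign, counting the fit without MGL KO 2 and MGL KO 4. Klk8 ran from -0.88 to 0.01, Klk10 from -0.54 to 0.34, Klk13 from -0.63 to 0.24, Spink5 from -0.60 to 0.06, Cst6 from -0.41 to 0.44, Serpinb5 from -0.07 to 0.43 and Klk7 from -1.16 to -0.42. Klk5 and Serpinb13 had at most 16 counts in any library, which limits the precision of their values.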
